A study of Rattus norvegicus with 9 samples.

Results

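The comparison described here sets 3 allograft corneas of the rat against 3 normal corneas, across mature miRNAs measured by small RNA sequencing. Members were all miRNAs with at least 5 RPM (reads of the miRNA per 1000000 reads of the library) in at least 3 of these 6 libraries, which kept 271 of the 765 miRNAs in the deposited table. Of the rest, 179 were at 0 in all 6 libraries and 315 were above 0 but too low. All samples are labelled as corneas of Wistar rats at 6 weeks of age with the tissue given as normal cornea, isograft cornea or allograft cornea, and the series holds 3 libraries of each. By the usual meaning of the words, an allograft comes from a genetically different donor of the same species and an isograft from a matched one; the labels call all 9 samples Wistar and give no donor strain, recipient, time after surgery, drug or clinical state of a graft. The title numbers 12, 34 and 56 name the libraries, and values of a group are given below in that order. Whether the 3 libraries of a group stem from 3 different animals is not stated. The p-values below cover no more than the spread among libraries, which could be technical. Apart from the permutation tests, and unless stated otherwise, they come from fits to all 9 libraries, isografts included. These fits also pool the spread across the items tested, so they do not measure the spread of the 6 compared libraries alone.

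A miRNA is a short RNA that guides an Argonaute protein to mRNAs, mainly through its seed (bases 2 to 8 from the 5′ end), and lowers their translation and stability. Each is cut from a hairpin that can give a product from its 5′ arm (5p) and from its 3′ arm (3p). Many miRNAs are strongly tied to a cell type: miR-184, miR-205 and the miR-200 family to corneal and other epithelia, miR-142 and miR-223 to blood-derived leukocytes, miR-126 to the endothelium of vessels, and miR-143 and miR-145 to smooth muscle and fibroblast-like cells. The normal cornea has no blood vessels in its centre and few leukocytes, and an immune response to a corneal allograft can bring in both.

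The mature sequences of the miRNAs on which the results turn are shown first, as RefSeq gives them for the assembly GRCr8, in lower case with the seed in capitals. The first set holds miRNAs of leukocytes and of inflammatory activation that were higher in the allografts, and miR-146a-5p and miR-146b-5p share a seed.
miR-142-3p: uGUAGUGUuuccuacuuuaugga
miR-142-5p: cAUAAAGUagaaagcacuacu
miR-223-3p: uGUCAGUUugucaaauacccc
miR-155-5p: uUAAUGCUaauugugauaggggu
miR-21-5p: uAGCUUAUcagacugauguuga
miR-146a-5p: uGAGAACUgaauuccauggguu
miR-146b-5p: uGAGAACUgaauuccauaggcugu
The pair differs at G18A and U21C, with positions counted from 1 at the 5′ end of miR-146a-5p and its base given first. The arms of miR-142 lie at chr10:73055119-73055139 and chr10:73055155-73055177 on the plus strand, miR-223-3p at chrX:65151450-65151470 (plus), miR-155-5p at chr11:37261117-37261139 (plus), miR-21-5p at chr10:71902653-71902674 (minus), miR-146a-5p at chr10:28350053-28350074 (minus) and miR-146b-5p at chr1:255144874-255144897 (plus).

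A second set shows miRNAs with a shared seed of which a rare member on chromosome X rose in the allografts, with abundant members of the same seed beside it.
miR-363-3p: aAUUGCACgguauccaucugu
miR-92a-3p: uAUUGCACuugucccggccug
miR-25-3p: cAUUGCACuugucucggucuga
miR-20b-5p: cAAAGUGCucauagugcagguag
miR-17-5p: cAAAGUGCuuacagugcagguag
miR-322-5p: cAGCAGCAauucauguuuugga
miR-16-5p: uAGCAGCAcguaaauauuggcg
miR-363-3p lies at chrX:137342788-137342808 and miR-20b-5p at chrX:137343239-137343261, and miR-322-5p at chrX:137726198-137726219, all on the minus strand. miR-17-5p and miR-20b-5p differ at U10C and C12U, with miR-17-5p as the reference, so a read misread at these bases could be counted for the other.

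The third set holds epithelial miRNAs that fell: the abundant miR-184, miR-205, miR-203a-3p and miR-204-5p, and miR-211-5p, a rare relative of the last.
miR-184: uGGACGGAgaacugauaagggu
miR-205: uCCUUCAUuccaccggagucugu
miR-203a-3p: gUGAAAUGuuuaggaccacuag
miR-204-5p: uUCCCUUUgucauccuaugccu
miR-211-5p: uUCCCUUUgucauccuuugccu
miR-204-5p and miR-211-5p share a seed and differ at A17U, with miR-204-5p as the reference. In the order shown, the 5 lie at chr8:99222991-99223012 (minus), chr13:107564588-107564610 (minus), chr6:137020756-137020777 (plus), chr1:229743493-229743514 (plus) and chr1:127189353-127189374 (plus).

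The 6 libraries had nearly equal totals, 11004676 to 11013517 reads, so that 3 reads, the limit that a count of 0 allows, stand for 0.272 to 0.273 RPM in each (counting error only). The listed miRNAs took 57.6% ± 9.85 of all reads in the normal libraries (SD, n = 3) and 35.6% ± 10.04 in the allografts; an exact two-sided permutation test gave p = 0.1, the smallest that 3 against 3 allow. Without miR-184 these shares were 28.8% ± 3.28 and 31.4% ± 8.63 (exact permutation p = 0.9). Without both miR-184 and miR-21-5p they were 27.9% ± 3.12 and 20.2% ± 5.77 (exact permutation p = 0.2). Among the allografts, library 56 had the highest miRNA share (46.3%) and library 34 the lowest (26.4%), and library 34 also stood apart in red blood cell miRNAs, described below. Over all 271 miRNAs the median difference of log2(RPM + 1), allograft minus normal, was -0.13.

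The make-up of the miRNA pool differed as a whole. miR-184, a miRNA of the corneal epithelium and lens that is known for its abundance in the cornea, took 49.7% ± 3.24 of the listed miRNA reads in normal corneas (SD, n = 3) and 11.5% ± 2.02 in allografts. miR-21-5p, which inflammation, wound repair and proliferation raise in many tissues, took 1.43% ± 0.0664 in normal corneas and 31.7% ± 1.97 in allografts. The groups did not overlap in either share (exact two-sided permutation p = 0.1 for each, the smallest possible). By mean RPM, miR-21-5p was 12th of the 271 in normal corneas and 1st in allografts, while miR-184 went from 1st to 2nd. The other leading miRNAs of normal corneas were miR-148a-3p, miR-203a-3p, miR-205, miR-26a-5p, let-7f-5p, let-7i-5p, miR-27b-3p, miR-200b-3p and miR-99a-5p. In allografts miR-205, miR-200b-3p and miR-99a-5p left the 10 most abundant, and let-7g-5p and miR-143-3p entered with miR-21-5p.

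A miRNA was called changed when the limma adjusted p (Benjamini-Hochberg over the 271) was below 0.05, and fold changes are differences of mean log2(RPM + 1) with their standard error (SE), 3 libraries a group. By this rule 125 of the 271 miRNAs changed, 46.1%: 61 were higher in the allografts (22.5%) and 64 lower (23.6%). The median rise was 2.45 and the median fall -1.47 on the log2 scale, and 21 rises but 2 falls exceeded 8-fold. The balance of directions depended on the scaling: scaled to the summed reads of all listed miRNAs, which moved the median of all miRNAs to 0.54, 139 were higher and 43 lower, and scaled to all reads other than miR-184, which moved it to -0.55, 48 were higher and 100 lower. Of the calls, 48 rises and 43 falls held under all 4 other scalings tried and in 2 tests on read counts, edgeR and DESeq2. No call turned into a call in the opposite direction under any alternative tried, and of the 94 called miRNAs named by rule 75 kept the call under all alternatives in which they were tested. The filter at 50 RPM left out 41 of the 94, 30 of them among the 75. The normal and allograft libraries did not overlap for 163 miRNAs, 60.1% of the 271, with the allografts above in 81 (29.9%) and below in 82 (30.3%). Among the called miRNAs, allograft library 56 was the highest of the 3 allografts in 57 of the 61 rises and in 52 of the 64 falls. That library also had the highest share of miRNA reads of the allografts, and the part of this share in the values was not tested.

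**Figure D1:**
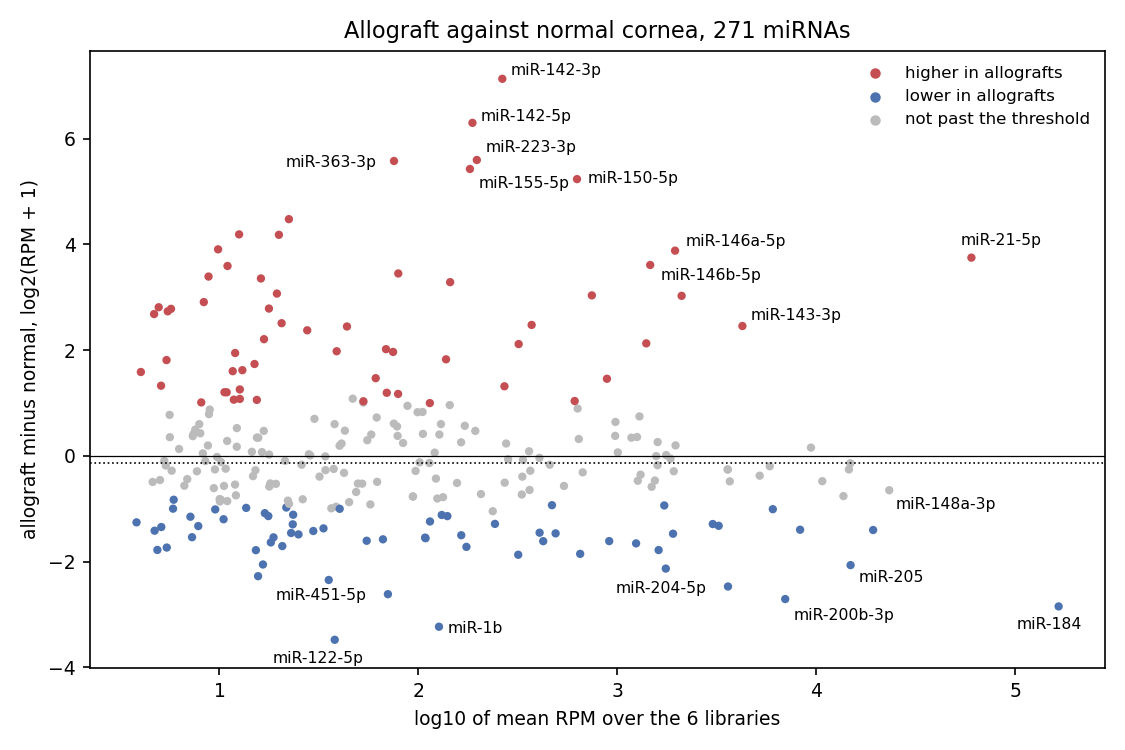
Each point is 1 of the 271 miRNAs, with the log10 of its mean RPM over the 6 libraries on the x axis and the difference of mean log2(RPM + 1), allograft minus normal, on the y axis; red and blue points passed an adjusted p of 0.05 and the dotted line is the median of all miRNAs, -0.13. The rises reach 7.13 (miR-142-3p), mostly among miRNAs of low and middle abundance, while the abundant miR-184 fell by 2.85 and miR-21-5p rose by 3.75.

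The filter itself fixed part of these differences. 19 miRNAs reached 5 RPM in all 3 allografts and in no normal cornea and 9 in all 3 normal corneas and no allograft, so these had to differ and their counts and p-values are no independent support; 18 of the 19 are among the rises and all 9 among the falls. Of the other 243 miRNAs, 43 rose (17.7%) and 55 fell (22.6%), and 211 of them were at or above 5 RPM in all 6 libraries. The counts of the lists below stand against these shares. Just inside the filter were miR-34b-3p and miR-421-3p, whose value in the third-highest library was 5.09 RPM each. Just outside were miR-329-5p at 4.82 and miR-582-5p at 4.72 RPM.

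The 3 largest rises were in miRNAs of leukocytes, both arms of miR-142 and miR-223-3p. miR-142, a hairpin expressed throughout the blood cell lineages and used as their marker, was at 3.995, 1.64 and 2.82 RPM for its 3p arm in normal corneas and at 443, 465 and 667 RPM in allografts. This is a difference of 7.13 ± 0.45 on the log2 scale (SE). Its 5p arm, miR-142-5p, was at 4.09, 3.36 and 3.09 RPM against 274, 295 and 542 RPM, a difference of 6.30 ± 0.42. The lowest allograft was far above the highest normal cornea in both arms, which are among the 19 miRNAs that passed the filter through the allografts alone. In isografts the 3p arm was at 11.3, 47.5 and 34.7 RPM, between the other groups, and the allografts were above the isografts by 4.22 ± 0.45 (limma adjusted p = 4.37e-08, a call made for 33.2% of the 271 miRNAs in that contrast).

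Of the 4 listed myeloid miRNAs 3 were kept, and 2 of these, miR-223-5p and miR-511-3p, passed the filter through the allografts alone. The third, miR-223-3p, abundant in neutrophils and monocytes and a brake on granulocyte maturation, was at 9.17, 5.996 and 5.45 RPM in normal corneas and 252, 415 and 492 RPM in allografts (5.60 ± 0.41). Its partner arm miR-223-5p rose by 4.48. miR-511-3p, cut from an intron of the mannose receptor gene of macrophages, was at 0.454, 0.545 and 0.0908 RPM in normal corneas, where 3 reads are 0.273 RPM, and at 18.5, 19.4 and 36.3 RPM in allografts (4.19 ± 0.39). The 3 normal values lie at or near the limit of detection, so the size of that rise is loosely known while its direction is the same in every library. miR-511-5p did not pass the filter and reached at most 4.09 RPM.

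Of the 5 lymphocyte miRNAs kept, 3 rose, miR-150-3p among them having passed the filter through the allografts alone. Of the other 4 kept, 2 rose, against 17.7% of the 243. miR-150-5p, high in resting mature B and T cells, was at 32.7, 30.1 and 26.9 RPM in normal corneas, 53.6, 79.7 and 106 RPM in isografts and 989, 863 and 1819.6 RPM in allografts. The allografts exceeded the normal corneas by 5.23 ± 0.39 (limma adjusted p = 8.31e-12) and the isografts by 3.89 ± 0.39 (limma adjusted p = 1.27e-08). It was the 39th most abundant miRNA of the allografts and the 153rd of the normal corneas. Its other arm miR-150-3p rose by 3.59, and miR-342-3p, a miRNA of lymphocytes and other leukocytes, went from 13.5, 10.4 and 13.9 to 68.2, 56.8 and 99.6 RPM (2.45 ± 0.38). The isografts were near the normal level for miR-342-3p, at 14.97, 18.7 and 18.6 RPM. miR-181a-5p and miR-181b-5p, which tune receptor signalling in developing T cells but are expressed in many tissues, did not pass the threshold (differences of -0.47 and -0.39). Summed over the 6 leukocyte markers (both miR-142 arms, miR-223-3p, miR-150-5p, miR-155-5p and miR-342-3p) the level was 58.1 to 70.3 RPM in normal corneas and 2350 to 4096 RPM in allografts. All 6 were above 0 in all 6 libraries. In bulk tissue, more cells of a type and more of the RNA per cell cannot be told apart, here or in any comparison below.

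The list of activation and NF-kB responsive miRNAs had 9 kept of 13. The filter kept 5 of them (miR-21-3p, miR-132-3p, miR-146a-3p, miR-146b-3p and miR-147) through the allografts alone. The other 4 (miR-155-5p, miR-146a-5p, miR-146b-5p and miR-21-5p) all rose, against 17.7% of the 243. miR-155-5p, induced in activated lymphocytes and macrophages, was at 6.81, 6.63 and 7.72 RPM in normal corneas, 31.4, 55.5 and 50.97 RPM in isografts and 337, 255 and 476 RPM in allografts. Its difference was 5.43 ± 0.39 against normal corneas and 2.92 ± 0.39 against isografts (limma adjusted p = 6.40e-12 and 1.71e-06). The sister miRNAs of the seed GAGAACU, which NF-kB induces and which restrain IRAK1 and TRAF6, both rose. miR-146a-5p was at 238, 245 and 235 RPM against 3434, 2615 and 4931 RPM, and miR-146b-5p at 198, 224 and 236 RPM against 2657, 2333 and 3124 RPM. The normal libraries lay close together for each, and every allograft was far above them. miR-146a-5p made up 52.2% ± 2.29 of the pair in normal corneas and 56.8% ± 4.20 in allografts (SD, n = 3), and the ranges overlapped.

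miR-21-5p, the most abundant miRNA of the allografts, stood at 6675, 9814 and 8286 RPM in normal corneas, 29201, 71854 and 62369 RPM in isografts and 101991, 89617 and 144609.9 RPM in allografts. The allografts were above the normal corneas by 3.75 ± 0.34 (limma adjusted p = 5.88e-10) and above the isografts by 1.11 ± 0.34 (limma adjusted p = 0.0142). Its rare other arm, miR-21-3p, went from 0.454, 0.999 and 0.545 to 11.99, 15.2 and 23.7 RPM. miR-147, induced by Toll-like receptor signalling in macrophages, rose by 3.36 ± 0.39. miR-132-3p, induced by CREB in neurons and in activated endothelial and immune cells, went from 0.999, 0.636 and 0.0908 to 8.45, 8.91 and 9.09 RPM (2.68 ± 0.36), and isografts reached 5.59, 12.3 and 13.99 RPM. For miR-132-3p allografts and isografts did not differ past the threshold (difference -0.16 ± 0.36, limma adjusted p = 0.763). The remaining rises of this list were the passenger arms miR-146a-3p (2.81) and miR-146b-3p (2.78), both under 1 RPM in every normal cornea.

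**Figure D2:**
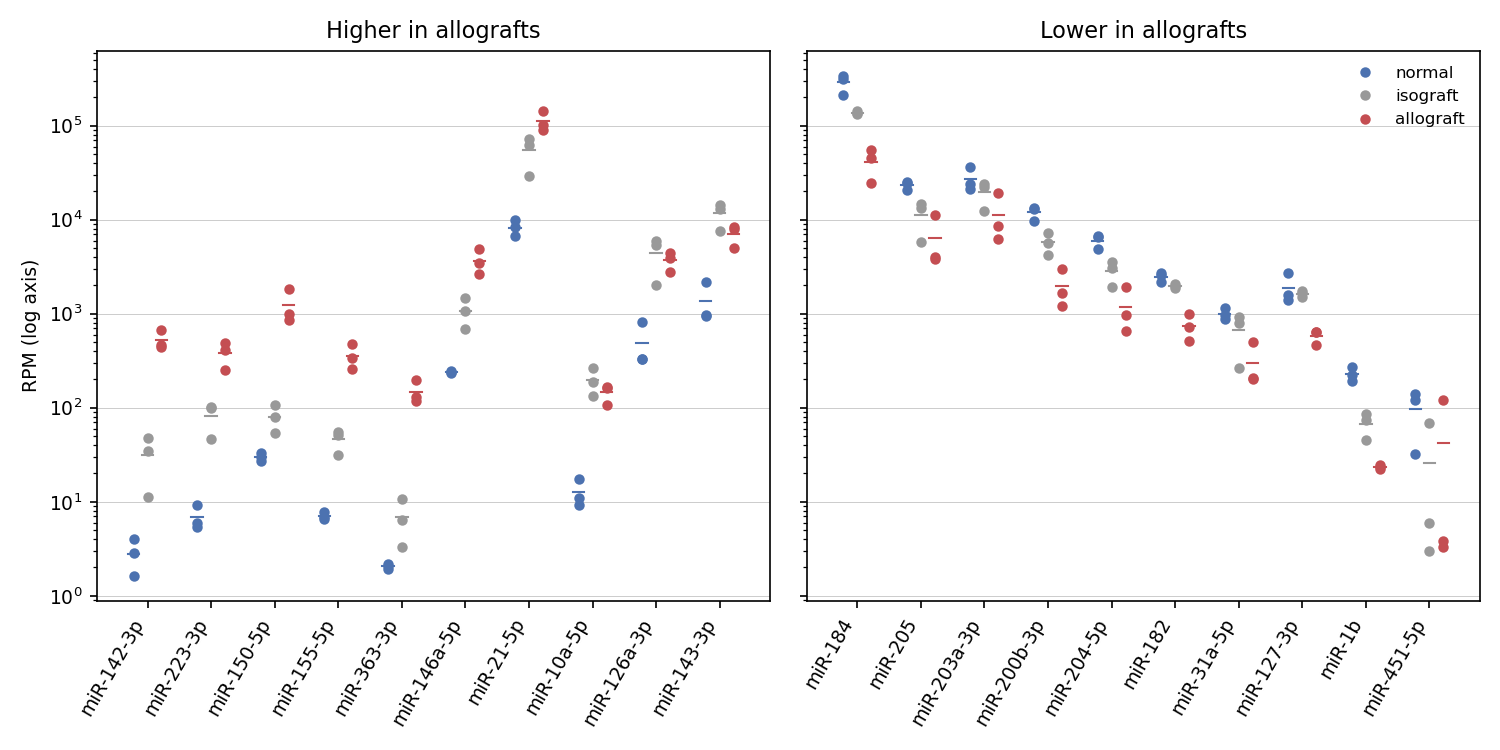
RPM on a log axis for 10 miRNAs that were higher and 10 that were lower in allografts, 1 point for each of the 3 libraries of normal cornea (blue), isograft (grey) and allograft (red), with a bar at the group mean. miR-142-3p, miR-223-3p, miR-150-5p and miR-155-5p step up from normal cornea to isograft to allograft, miR-10a-5p, miR-126a-3p and miR-143-3p are as high in isografts as in allografts or higher, and for miR-451-5p 1 allograft lies among the normal corneas.

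Among the miR-17-92 cluster and its paralogues, which drive proliferation and lymphocyte growth, 7 of 14 kept members rose and none fell. Of the 7, miR-363-3p, miR-20b-5p, miR-17-2-3p and miR-18a-5p passed the filter through the allografts alone; of the other 10 kept members 3 rose, against 17.7% of all miRNAs outside those that the filter kept through 1 group. The members are given by cluster, and differences between clusters were not tested. On chromosome X (chrX:137342788-137343637), miR-363-3p was at 2.09, 1.91 and 2.18 RPM in normal corneas, 3.29, 10.8 and 6.45 RPM in isografts and 129.7, 118 and 198 RPM in allografts. Its difference was 5.58 ± 0.40 from normal corneas and 4.34 ± 0.40 from isografts (limma adjusted p = 7.98e-09). From the same cluster miR-20b-5p went from 2.27, 0.636 and 0.818 to 34.9, 30.6 and 50.2 RPM and miR-17-2-3p from 0.272, 0.363 and 0.0908 to 13.6, 11.9 and 32.8 RPM. All 3 were under 3 RPM in every normal cornea and above 10 RPM in every allograft, and isografts held miR-17-2-3p at only 0.165, 0.9999 and 0.363 RPM.

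Of the 6 kept miRNAs of the paralogue on chromosome 15 (chr15:98587861-98588622), 3 rose: miR-18a-5p (2.73 ± 0.35), miR-19a-3p (1.95 ± 0.39) and miR-17-5p (1.32 ± 0.41). miR-20a-5p (0.90), miR-19b-3p (1.08) and miR-92a-3p (0.35) did not. miR-92a-3p, miR-19b-3p and miR-17-5p have a copy in both clusters, so their reads cannot be assigned to 1 of them. In the third cluster, on chromosome 12 (chr12:22156652-22157123), none of miR-25-3p, miR-93-5p, miR-106b-5p and miR-106b-3p passed, with differences of 0.09 to 1.01. miR-92b-3p, from a separate gene, rose by 1.01, and like miR-17-5p it was no longer past the threshold when reads were scaled to all reads other than miR-184.

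The miRNAs of the corneal and squamous epithelium fell: 7 of 8 kept members were lower and none higher, against 22.6% of the 243 lower. Their median was -1.66 against -0.13 for all miRNAs. miR-184 was at 214371, 339752 and 311966 RPM in normal corneas, 134975, 143729.8 and 131748 RPM in isografts and 45386, 24753 and 54480.3 RPM in allografts. Its mean was 6.95 times lower in allografts, a difference of -2.85 ± 0.32 on the log2 scale (limma adjusted p = 2.57e-08), and it was also below the isografts (difference -1.79 ± 0.32, limma adjusted p = 1.05e-04). miR-205, needed for keratinocyte migration and survival, was at 20546, 24542 and 25057 RPM against 4034, 3832 and 11162 RPM (-2.06 ± 0.39). miR-203a-3p, which moves basal keratinocytes into differentiation by repressing p63, was at 21386, 36441 and 23982 RPM against 8541, 6181 and 19237 RPM (-1.40 ± 0.38). The groups did not overlap for any of these, although allograft 56 lay just below normal 12 for miR-203a-3p.

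The miR-183, miR-96 and miR-182 cluster of sensory epithelia and corneal nerves (chr4:59752249-59756127) fell in all 3 members, by 1.46, 1.54 and 1.78. miR-182 had the highest level of the cluster, 2171, 2693 and 2569.7 RPM in normal corneas and 716, 514 and 1005 RPM in allografts, with isografts at 1972, 2056 and 1872 RPM. Isografts and normal corneas did not differ past the threshold for miR-182 (difference -0.33 ± 0.33, limma adjusted p = 0.617; 20.7% of the 271 miRNAs passed in that contrast). miR-31a-5p, which supports keratinocyte and hair growth, fell by 1.85, and its other arm miR-31a-3p did not pass (-0.74). Over the 11 markers of corneal epithelium, which add the miR-200 family, the summed level was 274824 to 425226 RPM in normal corneas and 38154 to 92827 RPM in allografts. None of the 11 was at 0 in any of the 6 libraries, and 10 were lower.

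In the miR-200 family, which keeps cells epithelial by repressing ZEB1 and ZEB2, 6 of 7 kept members fell, against 22.6% of the 243. The median was -1.87. miR-200b-3p was at 9771, 12960.4 and 13248 RPM in normal corneas and 1669, 1202 and 3004 RPM in allografts (-2.71 ± 0.35, limma adjusted p = 3.29e-07). miR-200a-3p was at 2372, 3166 and 2785 RPM against 463, 407 and 1318 RPM and miR-429 at 414, 556 and 485 RPM against 101, 84.1 and 264 RPM. These 3 come from 1 cluster, whose minor arms miR-200b-5p (-2.34) and miR-200a-5p (-1.72) fell too. In the second cluster of the family miR-200c-3p fell by 1.47, while miR-141-3p, at 26.2, 33.3 and 25.8 RPM against 11.1, 9.996 and 27.7 RPM, did not pass the threshold (-0.91). The difference between the clusters was not tested.

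miR-204 and miR-211, miRNAs of the lens, the pigment epithelium and the corneal epithelium, where miR-204 is known to restrain vessel growth, fell in all 3 kept members. miR-204-5p was at 4836, 6499 and 6687 RPM in normal corneas, 1914, 3564 and 3059 RPM in isografts and 976, 658 and 1926 RPM in allografts (-2.47 ± 0.37, limma adjusted p = 4.05e-06). miR-211-5p, with the same seed, went from 23.2, 31.7 and 27.5 to 7.72, 4.82 and 13.8 RPM (-1.64 ± 0.40), and the other arm miR-204-3p fell by 2.05. The 5p arms of both fell, although miR-211-5p was less than 1% of their sum in every library (0.457% ± 0.0413 in normal corneas and 0.741% ± 0.0389 in allografts, SD, n = 3), so that its level could hold a few misread copies of miR-204-5p.

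Of the 15 kept miRNAs of stroma and smooth muscle, 8 rose and none fell (median 1.19; 17.7% of the 243 miRNAs rose). The call of 1 of the 8, miR-214-3p, was lost with reads scaled to all reads other than miR-184. miR-143-3p, from the cluster with miR-145 that sets the contractile state of smooth muscle, was at 2182, 956 and 974 RPM in normal corneas, 7599, 13098 and 14366 RPM in isografts and 8046, 5042 and 8300.5 RPM in allografts (2.46 ± 0.37). The 4 arms of that cluster all rose, the others by 2.79 (miR-143-5p), 1.83 (miR-145-5p) and 1.98 (miR-145-3p). Isografts held more miR-145-5p than allografts, 343, 728 and 586 against 216, 141 and 285 RPM (allograft minus isograft -1.35 ± 0.41, limma adjusted p = 0.0129). Normal 12 was the highest normal cornea for miR-143-3p and miR-145-5p and for miR-126a-3p and miR-10b-5p as well.

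miR-10a-5p and miR-10b-5p, which lie in the HOX gene clusters, rose from 11.1, 9.18 and 17.5 to 168, 106 and 164 RPM (3.45 ± 0.40) and from 284, 112 and 121 to 1634, 1043 and 1271 RPM (3.04 ± 0.37). Isografts were at 188, 268 and 133 and at 1647, 2255 and 1707 RPM, and allografts did not differ from them past the threshold (limma adjusted p = 0.451 and 0.300). The remaining rises were miR-214-3p (1.19) and miR-455-5p (1.47). The abundant mesenchymal miR-199a-3p was at 6149.9, 5711 and 6163 RPM against 4436, 3658 and 8890.2 RPM and did not pass (-0.20), nor did miR-199a-5p (0.26), miR-140-3p (0.75), miR-140-5p, miR-152-3p, miR-152-5p or miR-455-3p. Summed over the 5 stromal markers, normal corneas held 8070 to 9911 RPM and allografts 10249 to 20138 RPM.

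The endothelial miR-126, from an intron of Egfl7 and a promoter of vessel integrity, rose in both arms. miR-126a-3p was at 812, 332 and 331 RPM in normal corneas, 2025, 5870.0 and 5376 RPM in isografts and 3909.8, 2806 and 4428 RPM in allografts (3.03 ± 0.41, limma adjusted p = 5.88e-07), and miR-126a-5p rose by 3.29 ± 0.51. Isografts and allografts overlapped for both. In the wider list of endothelium and vessel growth, 4 of 10 kept members rose and none fell (median 0.66), against 17.7% rising of the 243. The others that rose were miR-322-5p (2.38 ± 0.46) and miR-503-5p (2.21 ± 0.49), known as hypoxia- and growth-regulated miRNAs. miR-221-3p, miR-221-5p, miR-222-3p, miR-351-5p, miR-322-3p and miR-503-3p did not pass, with differences of -0.57 to 0.70.

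The imprinted Dlk1-Dio3 locus carries 1 of the largest miRNA clusters of the rodent genome, transcribed from the maternal copy. The filter kept 25 of its 83 listed miRNAs, and 19 of them fell while none rose (median -1.41, range -1.78 to -0.44). The filter kept 3 of the 19 through the normal corneas alone, and 16 of the other 22 fell, against 22.6% of the 243. Its most abundant member, miR-127-3p, was at 1593, 1388 and 2719 RPM in normal corneas, 1758, 1489 and 1657 RPM in isografts and 646, 469 and 636 RPM in allografts (-1.65 ± 0.34, limma adjusted p = 2.66e-04). The isografts lay within the range of the normal corneas for miR-127-3p (isograft minus normal -0.16 ± 0.34, limma adjusted p = 0.823). miR-379-5p was at 489, 449 and 869 RPM against 226, 184 and 223 RPM and miR-541-5p at 71.8, 56.8 and 124 RPM against 27.99, 24.2 and 24.7 RPM, with differences of -1.45 and -1.60. Normal 56 was the highest normal cornea in each of these 3. Of the 16 kept miRNAs in the stretch chr6:134543460-134579250, 14 fell, and miR-300-3p and miR-409a-5p did not pass. Among the 14, miR-376c-3p, miR-381-3p and miR-1193-3p passed the filter through the normal corneas alone and so had to be lower. With libraries scaled to their summed miRNA reads the median of the list was still negative, -0.73, and 15 of the 19 calls held under all 4 other scalings.

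**Figure D3:**
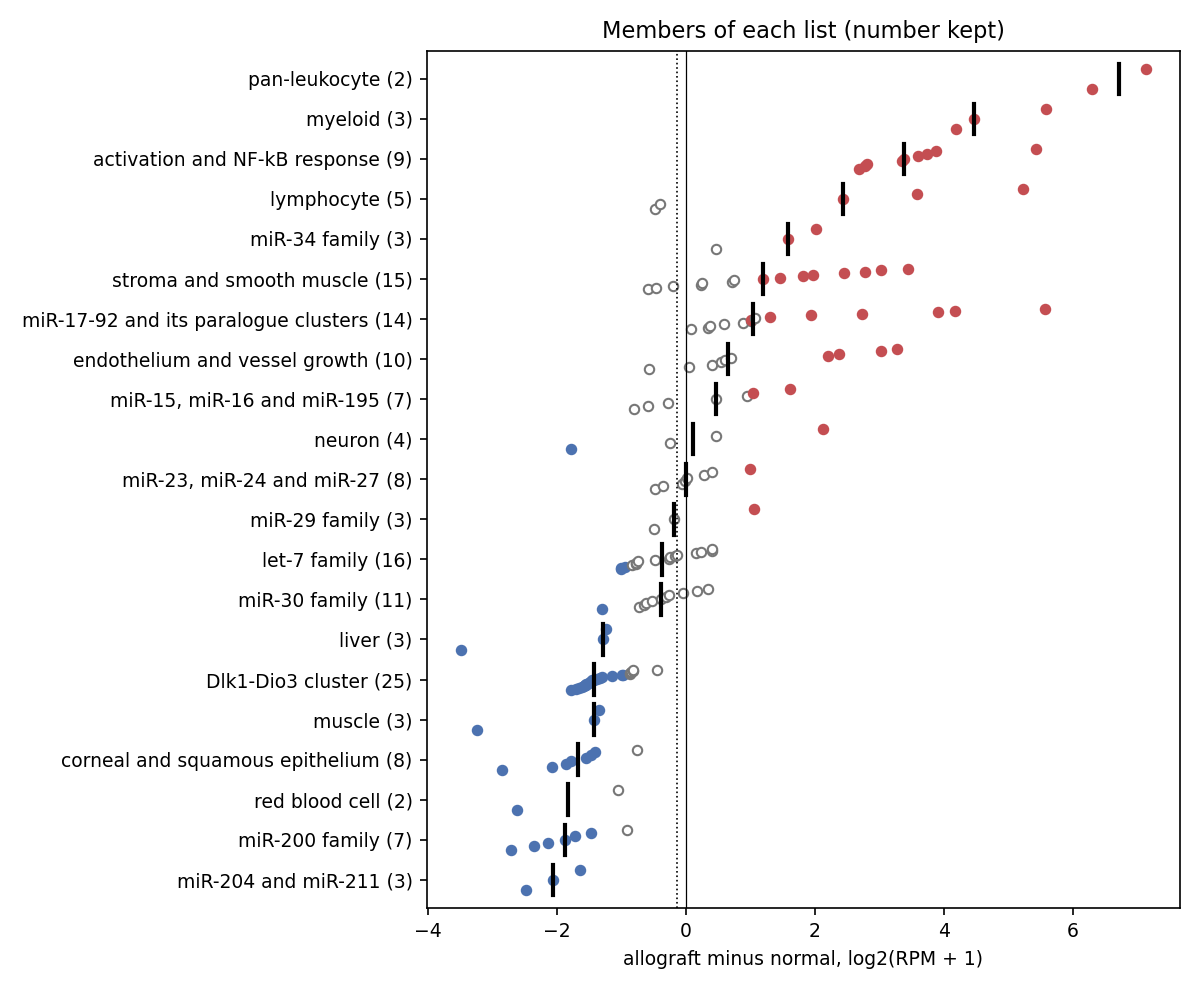
Each point is a kept member of 1 of the 21 lists, placed by its difference of mean log2(RPM + 1), allograft minus normal; filled points passed an adjusted p of 0.05 (red higher, blue lower), open points did not, the black bar is the median of the list and the dotted line that of all 271 miRNAs, -0.13. The leukocyte, myeloid and activation lists, most of whose points passed the filter through the allografts alone, lie wholly to the right, and the miR-204, miR-200, epithelial, muscle and Dlk1-Dio3 lists wholly to the left.

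Muscle miRNAs fell in all 3 kept members, but only the call of miR-1b held when libraries were scaled to their summed miRNA reads. miR-1b was at 273, 225 and 193 RPM in normal corneas, 45.2, 73.3 and 85.3 RPM in isografts and 24.8, 22.2 and 23.4 RPM in allografts (-3.23 ± 0.38, limma adjusted p = 5.13e-08), the largest fall among miRNAs of at least 50 RPM whose groups did not overlap. The table lists the muscle miRNA miR-1-3p, which differs from miR-1b by 1 base, at no more than 0.909 RPM in these 6 libraries, so the split of reads between the near-identical pair is uncertain. miR-133a-3p fell by 1.34 and miR-499-5p by 1.42 (-0.76 and -0.73 under that scaling, limma adjusted p = 0.172 and 0.0768). Of the 8 muscle markers, miR-208a-3p and miR-208b-3p of heart muscle were at 0 in all 6 libraries. The sum was 243 to 323 RPM in normal corneas, most of it miR-1b, and 38.9 to 53.0 RPM in allografts. The marker miR-206-3p, not kept, was at 1.91, 1.64 and 1.18 RPM in normal corneas and 0.3635, 6.09 and 0.3635 RPM in allografts.

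The blood-borne miRNAs varied with single libraries. The red cell miRNA miR-451-5p stood at 121, 31.9 and 141 RPM (normal corneas) and at 3.82, 120.1 and 3.27 RPM (allografts), and miR-486 at 192, 50.2 and 201 against 15.3, 946 and 13.8 RPM. Allograft 34 stood far above the other allografts in both. miR-451-5p passed the threshold although the groups overlapped (-2.61 ± 0.90, limma adjusted p = 0.0195). Without allograft 34 the difference was -4.19, while without allograft 56, normal 12 or normal 56 it was -1.78, -2.34 and -2.22 and no longer past the threshold. miR-486 did not pass (-1.04, limma adjusted p = 0.390) but did without allograft 34 (-3.02, limma adjusted p = 0.00426). Of the 4 red cell markers, miR-144-5p and miR-144-3p reached at most 1.00 and 0.909 RPM.

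miR-122-5p, a miRNA of hepatocytes that circulates in plasma, showed a like pattern at 59.4, 31.6 and 102 RPM in normal corneas, 75.04, 38.2 and 0.727 RPM in isografts and 1.18, 32.7 and 0.9995 RPM in allografts. It passed the threshold with overlapping groups (-3.48 ± 0.93, limma adjusted p = 0.00284); without normal 56 it did not (limma adjusted p = 0.0563), and on whole reads it did not by edgeR or DESeq2 with their own scaling (adjusted p = 0.267 and 0.283) but did by edgeR with the RPM totals (adjusted p = 0.0295). miR-192-5p and miR-194-5p, shared by liver, gut and kidney, fell by 1.28 and 1.24, the latter not past the threshold with libraries scaled to their summed miRNA reads. The neuronal list had no common direction: miR-7a-5p rose, miR-138-5p (kept through the normal corneas alone) fell and miR-128-3p and miR-9a-5p did not pass, and the defining brain miRNA miR-124-3p was at most at 0.454 RPM. miR-7a-5p, also known from endocrine cells and as a brake on growth factor signalling, was at 449, 576 and 529 RPM in normal corneas, 592, 786 and 623 RPM in isografts and 2441, 1879 and 2507 RPM in allografts (2.13 ± 0.33, limma adjusted p = 5.81e-06).

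In several broadly expressed families most kept members did not pass. In the let-7 family, whose members hold cells in a differentiated state, 3 of 16 kept members fell and none rose. This is no more than the 23.6% that fell among all miRNAs. The filter kept 1 of the 3, let-7c-1-3p, through the normal corneas alone, so it had to be lower. Of the other 15 kept members 2 fell, against 22.6% of the 243. The median of the 16 was -0.37 and turned to 0.32 when libraries were scaled to their summed miRNA reads. None of the 3 calls held under that scaling. let-7c-5p was at 6929, 8544 and 8344 RPM against 3675, 2754 and 6014 RPM (-1.01 ± 0.33) and let-7b-5p and let-7c-1-3p fell by 0.94 and 1.00, whereas let-7i-5p, at 13639, 16524 and 16284 RPM against 14981, 11511 and 15939.6 RPM, did not pass (-0.14). let-7a-1-3p and let-7c-2-3p have the same values in every library and are 1 measurement under 2 names. In the miR-30 family, miR-30c-5p fell by 1.29 and the other 10 did not pass (median -0.37, or 0.35 under that scaling). In the miR-29 family, which represses collagen genes, miR-29b-3p rose by 1.06 and miR-29a-3p and miR-29c-3p did not pass (median -0.17, or 0.54 under that scaling); the rise did not hold with reads scaled to all reads other than miR-184. For miR-23, miR-24 and miR-27, 1 of 8 rose, miR-27a-5p (1.00), and the median was 0.01, or -0.43 with reads scaled to all reads other than miR-184.

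In the growth-arresting miR-34 family, activated by p53 and in ciliated cells, 2 of 3 kept members rose (median 1.59). Of the 2 kept members that did not pass the filter through the allografts alone, 1 rose, against 17.7% of the 243. miR-34c-5p was at 23.3, 30.3 and 21.98 RPM in normal corneas, 77.5, 162 and 136 RPM in isografts and 84.2, 75.8 and 177 RPM in allografts (2.02 ± 0.41), and miR-34b-3p of the same cluster, kept through the allografts alone, rose by 1.59. miR-34a-5p did not pass (0.48), at 26.4, 43.3 and 35.2 against 41.9, 36.3 and 73.1 RPM. Among miR-15, miR-16 and miR-195, which restrain the cell cycle, 2 of 7 rose (median 0.47), near the 22.5% of all miRNAs: miR-15a-5p (1.62) and miR-16-5p (1.04), the latter no longer past the threshold with reads scaled to all reads other than miR-184. miR-195-5p was at 147, 167 and 145 against 74.1, 57.5 and 155 RPM and did not pass.

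A further 2 clusters on chromosome X held rises. All 4 kept miRNAs within chrX:17919195-17927261 rose: miR-532-5p from 90.9, 131 and 108 to 574, 464 and 856 RPM (2.48 ± 0.37, limma adjusted p = 3.92e-06), miR-501-3p (kept through the allografts alone) by 2.91, miR-362-3p by 1.74 and miR-532-3p by 1.60. Of the 8 kept within chrX:137720985-137726219, 3 rose, miR-322-5p, miR-503-5p and miR-542-3p (1.97). Outside the lists, miR-320-3p, which is made without the usual first cut by Drosha, fell from 546, 597 and 767 to 201, 156 and 276 RPM (-1.61 ± 0.36), and miR-125a-5p from 1185, 1317 and 1570.4 to 393, 328 and 665 RPM (-1.61 ± 0.37). miR-99a-5p, the 10th most abundant miRNA of normal corneas, fell by 1.40 from a mean of 11954 ± 1654 (SD) RPM. miR-148a-3p, 2nd in normal corneas, was at 24570.0, 30760.3 and 29339.6 against 23414, 14966 and 16444 RPM with no overlap, yet did not pass (-0.65, limma adjusted p = 0.0773). Nor did miR-26a-5p (-0.76), let-7f-5p (-0.26), let-7g-5p (0.16) or miR-27b-3p (-0.48).

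The ratio of the arms of a hairpin within a library does not move with how the library was scaled, apart from the RPM added to each arm. It was tested for the 59 hairpins with both arms kept, as log2 of the 3p over the 5p RPM after adding 1 RPM to each, and 16 hairpins passed an adjusted p of 0.05 (27.1%), 12 with a lower and 4 with a higher value in allografts on that scale. For 2 of the 12, miR-146a and miR-146b, the ratio of RPM with nothing added was higher in allografts on average. Of the 16, 5 have an arm that passed the filter through the allografts alone. The largest change was in miR-503, whose ratio was 1.21, 1.63 and 2.02 in normal corneas and 0.442, 0.311 and 0.214 in allografts (-2.16 ± 0.38, limma adjusted p = 8.99e-04). The neighbouring miR-322 had ratios of 8.12, 7.75 and 8.03 in normal corneas and 2.50, 2.09 and 1.67 in allografts (-1.82 ± 0.28, limma adjusted p = 5.06e-04). For both the 5p arm rose while the 3p arm did not pass the threshold, and the groups did not overlap. miR-455 went from 1.04, 1.16 and 1.30 to 0.457, 0.409 and 0.610 (-1.24 ± 0.22, limma adjusted p = 8.99e-04): its 3p arm led slightly in every normal cornea and its 5p arm in every allograft. The ratio of miR-31a went the other way, from 0.0145, 0.0152 and 0.0158 to 0.0345, 0.0322 and 0.0271 (1.11 ± 0.22): its 5p arm fell while its 3p arm did not pass.

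The ratio calls of rare arms depend on the added RPM. Of the 16, 8 had an arm under 5 RPM in some library, and 9 passed with 0.1, 0.5 and 1 RPM added. miR-150 (-1.64 ± 0.24 with 1 RPM added) and miR-223 (1.12 ± 0.34) passed with 1 RPM but not with 0.1 RPM, where the differences were -0.69 and 0.44, and the ratios of RPM themselves overlapped between the groups for both. For miR-146a (-1.07 ± 0.17) and miR-146b (-0.83 ± 0.17) the difference changed sign with 0.1 RPM added, to 0.23 and 0.14, where neither passed. The ratio of RPM itself was 0.00191, 0.00185 and 0.00155 for miR-146a in normal corneas and 0.00214, 0.00261 and 0.00289 in allografts, higher in every allograft and so opposite to the call, and the ratios of miR-146b overlapped. The changes of miR-503, miR-322, miR-455 and miR-31a held at each setting.

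**Figure D4:**
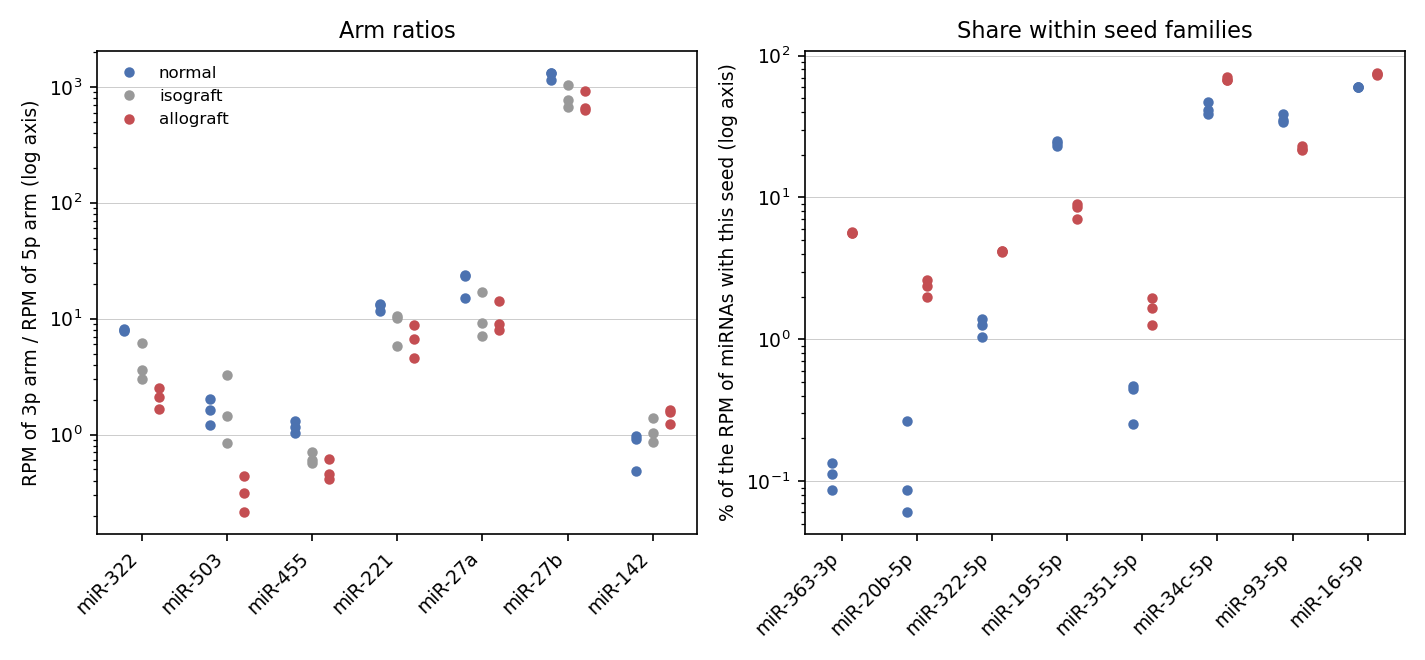
Left, the ratio of 3p to 5p RPM on a log axis for 7 hairpins in each of the 9 libraries (normal blue, isograft grey, allograft red). Right, the percentage that single miRNAs take of the summed RPM of the kept miRNAs matched to a sequence with their seed, on a log axis, in normal corneas and allografts. The miR-322 ratio is 7.75 to 8.12 in normal corneas and 1.67 to 2.50 in allografts, and the share of miR-363-3p is 0.0864% to 0.133% against 5.57% to 5.71%.

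Families were built from the 243 kept miRNAs with a RefSeq sequence, so some lack members, and 29 seeds had 2 or more kept miRNAs (81 in all). The summed RPM changed past an adjusted p of 0.05 for 9 of the 29, 31%. The SE of a family followed its abundance along the fitted trend, from 0.23 for the seed GAGGUAG to 0.47 for GUGCAAA. Neither this SE nor the p-value therefore measures the spread of that family's own libraries. The 4 rises were in the families of miR-146 (seed GAGAACU, 3.76 ± 0.40), miR-7 (GGAAGAC, 2.13 ± 0.42), miR-34 (GGCAGUG, 1.34 ± 0.46) and miR-19 (GUGCAAA, 1.28 ± 0.47). The 5 falls were in those of miR-204 and miR-211 (UCCCUUU, -2.46 ± 0.38), the 5p arms of miR-200a and miR-200b (AUCUUAC, -1.82 ± 0.46), miR-125 with miR-351 (CCCUGAG, -1.37 ± 0.35), miR-135 (AUGGCUU, -1.18 ± 0.47) and miR-26 (UCAAGUA, -0.73 ± 0.29). Of these, miR-34 and miR-19 were no longer past the threshold with reads scaled to all reads other than miR-184, and miR-135 and miR-26 with libraries scaled to their summed miRNA reads.

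Within families, the rare members shown at the start gained share. miR-363-3p was 0.111% ± 0.0236 of the RPM with seed AUUGCAC in normal corneas and 5.63% ± 0.0677 in allografts (SD, n = 3). The family sum itself did not pass (0.45 ± 0.39), and miR-92a-3p and miR-25-3p made up most of it in both groups. miR-20b-5p was 0.137% ± 0.112 of the seed AAAGUGC in normal corneas and 2.32% ± 0.304 in allografts, while miR-93-5p of that seed went from 35.9% ± 2.40 to 22.1% ± 0.680. For the seed AGCAGCA, miR-322-5p went from 1.23% ± 0.171 to 4.19% ± 0.0371 and miR-16-5p from 60.1% ± 0.246 to 74.2% ± 1.23, while miR-195-5p went from 24.0% ± 1.03 to 8.24% ± 1.03. The sum for this seed does not hold the kept miR-15a-5p. miR-34c-5p was 42.2% ± 4.31 of its pair with miR-34a-5p in normal corneas and 68.4% ± 2.10 in allografts. In each of these the normal and allograft libraries did not overlap, and the shares were not tested across families. miR-363-3p and miR-20b-5p passed the filter through the allografts alone, so their gain is no independent support. Shares in other families did not overlap either, as for let-7c-5p (14.3% ± 0.349 and 8.65% ± 1.82) and miR-101b-3p (30.2% ± 1.05 and 48.2% ± 2.49). Others did, as for miR-181a-5p (77.0% ± 0.750 and 76.8% ± 0.661).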

How the data were processed

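The deposited table gives RPM values computed by the authors for 765 miRNAs; the submitters' processing notes name bcl2fastq, BWA and the build rn6. Tool versions, trimming and the treatment of reads matching more than 1 miRNA were not given in the sources used here. Per the labels, libraries were made from Trizol-extracted RNA with an Illumina TruSeq small RNA kit. RPM divides by all reads, so a value also moves with reads outside the listed miRNAs. RPM values were whole multiples of 1 step in each library, and 100% became whole reads within 0.1 read; on those reads edgeR 4.0.16 called 189 miRNAs and DESeq2 1.42.0 called 190.

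limma 3.58.1 (R 4.3.3) with a mean-variance trend was fitted to log2(RPM + 1) of all 9 libraries with no covariate, with 6 residual degrees of freedom. For the seed families the SE was that of the trend over all families. Benjamini-Hochberg adjustment ran over the 271 kept miRNAs, the 59 hairpins or the 29 seed families. Adding 1 RPM understates the change of low miRNAs. The code was tested on simulated data, where 28.3% of 2-fold and 91% of 4-fold changes of single miRNAs were called. A miRNA that did not pass can therefore still differ between the groups. Single measures had exact permutation tests.

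Named were the 15 largest rises and 15 largest falls whose groups did not overlap and whose higher group averaged 50 RPM or more, the 10 most abundant miRNAs of each group, list members, the 5 largest rises from under 1 RPM, the 6 largest arm changes, the seed families past the threshold and the miRNAs at the edge of the filter. miRNAs outside this rule are named for their place in a cluster named here. Members and lists were chosen with earlier results of these data known. RefSeq sequences were matched by name for 243 of the 271; cluster positions are on GRCr8, not rn6, and grouped miRNAs within 10000 bases on 1 strand. Correlations of log2 values ran from 0.991 to 0.994 between normal libraries and 0.974 to 0.992 between allografts. Alternatives were other pseudocounts, filters, scalings and tools, a fit to only the 6 compared libraries, a replicate block and each library left out. A pseudocount of 0.1 RPM for arm ratios and edgeR with the RPM totals were added after seeing the data.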

Additional observations from a re-analysis of the deposited data

How the results depend on the processing

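The 15 largest rises and 15 largest falls named by rule kept their call under every alternative in which they were tested (miR-200b-5p was not tested with the filter at 50 RPM). The count of 125 changed miRNAs became 61 with a filter at 50 RPM (of 138 tested), 189 with median of ratios scaling, 191 with TMM scaling, 189 by edgeR and 190 by DESeq2 on whole reads; with edgeR and the RPM totals it was 128 and with no filter 186. The 16 arm ratios became 10 with 0.1 RPM added and 5 with the filter at 50 RPM. The 9 seed families became 2 with the filter at 50 RPM, 20 with median of ratios or TMM scaling, 17 with scaling to the summed miRNA reads, 20 by edgeR and 21 by DESeq2. Leaving out 1 library at a time gave 97 (without normal 56) to 156 (without isograft 12) miRNAs, 8 to 22 arm ratios and 5 to 14 seed families. For arm ratios the count was 8 without normal 34, 10 without normal 56 and 9 without allograft 34; for families it was 5 without normal 12, normal 56 or allograft 34 and 14 without isograft 12. With only the 6 allograft and normal libraries fitted, 72 miRNAs were higher and 76 lower. With a replicate block on the title number 137 miRNAs, 20 arm ratios and 7 families passed. Allografts and normal corneas of the same number deviated from their group means in opposite directions (correlations -0.15, -0.52 and -0.40). For allografts and isografts of the same number the correlations were -0.06, -0.42 and 0.56, and for isografts and normal corneas 0.01, 0.30 and -0.31. Deviations from a mean of 3 libraries are tied to each other, so these values cannot decide whether the numbers pair the libraries. The labels do not state it. The causes were not tested, beyond fewer items being tested under the higher filter.

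Under scaling to the summed miRNA reads, differences that were slightly negative and not past the threshold turned positive for let-7i-5p (0.58), let-7f-5p (0.46), let-7d-5p (0.55), miR-9a-5p (0.45), miR-30a-5p (0.46), miR-30b-5p (0.68), miR-30d-5p (0.35), miR-23b-3p (0.36), miR-24-3p (0.67) and miR-27a-3p (0.72). The arm ratio differences of miR-146a (-1.07) and miR-146b (-0.83) turned to 0.23 and 0.14 with 0.1 RPM added in place of 1 RPM, where neither passed.

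The 19 calls lost under 1 or more alternatives were those of miR-17-5p, miR-92b-3p, miR-16-5p, miR-29b-3p, miR-27a-5p and miR-214-3p, each lost with reads scaled to all reads other than miR-184; of let-7b-5p, let-7c-5p, let-7c-1-3p, miR-127-5p, miR-382-3p, miR-409a-3p, miR-494-3p, miR-194-5p, miR-133a-3p, miR-499-5p, miR-122-5p and miR-451-5p, each lost under scaling to the summed miRNA reads; and of miR-136-3p, lost only without normal 56. All but miR-17-5p and miR-133a-3p were also lost on leaving out at least 1 library. Among seed families, that of miR-125 was lost without allograft 34, and those of miR-34, miR-19, miR-135 and miR-26 on leaving out any of several libraries. Arm ratio calls of miR-142, miR-221, miR-27a, miR-27b, miR-340, miR-434, miR-204 and miR-223 were lost on leaving out single libraries; those of miR-503, miR-322, miR-455, miR-532 and miR-31a were not. Depth limits the miRNAs of a few RPM: 3 reads are 0.273 RPM, so sizes of rises from under 1 RPM are loosely known.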

Other observations

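Arms and relatives that the filter left out showed the following values, with no test. miR-363-5p, the partner arm of miR-363-3p, was at 0 in every normal cornea and isograft, whereas the allografts held 0.727, 0.454 and 0.909 RPM (23 reads in all). miR-449a-5p, which shares the miR-34 seed family in textbook accounts, was at 0.363, 0.727 and 0.454 RPM in normal corneas, 0.905, 3.45 and 2.73 RPM in isografts and 3.998, 3.998 and 9.27 RPM in allografts.

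Some miRNAs outside the lists were called too and were picked here after their values were seen. miR-139-5p, found in endothelium and blood cells, was at 5.99, 2.36 and 2.36 RPM in normal corneas and 36.7, 29.4 and 39.9 RPM in allografts (3.07 ± 0.40, limma adjusted p = 3.31e-07). miR-340-5p rose from 99.1, 139 and 110.5 to 416, 407 and 744 RPM (2.12 ± 0.41). miR-135b-5p, an epithelial miRNA, fell from 25.5, 36.5 and 18.2 to 5.18, 4.18 and 4.27 RPM (-2.27 ± 0.39). The allografts and normal corneas did not overlap for any of these 3.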
